A study of Mus musculus with 6 samples.

Results

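The nuclear genes for the subunits of the mitochondrial respiratory chain and ATP synthase were followed in the IVDs of Col2Cre;Adgrg6 f/f mutant and Cre (-) control mice at P20. Members were the gene symbols that begin with Nduf, then a, b, c, s or v and a digit, or with Cox4 to Cox8, Uqcr or Atp5, together with Sdha, Sdhb, Sdhc and Sdhd, where the counts summed over the 6 libraries reached 60. Of 43472 symbols, 87 had such a name and 81 reached the minimum, 36 of complex I, 4 of complex II, 8 of complex III, 16 of complex IV and 17 of ATP synthase.

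Mutant mice were homozygous for the floxed Adgrg6 allele, listed in the sample titles by its older name Gpr126, and carried the Col2Cre transgene, which according to the study recombines in the whole IVD and also in the periosteum and trabecular bone of the vertebra. Control mice were littermates without Cre in the study's text, wild type in the genotype labels and Col2Cre controls in the titles, and whether they carried the floxed allele is not given. All mice were of the strain written as C57B6/J, at day 20, with no sex given. Poly(A) RNA came from discs of the T8 to L5 levels, and each of the 3 mutant and 3 control libraries was a pool of 2 to 3 mice, so that p-values measure the spread between pools.

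The respiratory chain passes electrons from NADH through complex I, or from succinate through complex II, to ubiquinone, then through complex III and cytochrome c to oxygen at complex IV. Complexes I, III and IV pump protons across the inner mitochondrial membrane, and ATP synthase uses their return to make ATP. Chondrocytes and disc cells live with little oxygen and are known for a metabolism that relies largely on glycolysis, and several subunits exist in a general form and in a second form used in muscle, in testis or at low oxygen. A few genes caught by the names are no structural subunits of the complex they are named for. Ndufa4l2 is a paralogue of Ndufa4 induced at low oxygen, and Ndufa4 itself is now placed in complex IV. Cox7a2l helps to join complexes III and IV. Atp5s and Atp5sl, listed in RefSeq as Dmac2l and Dmac2, are assembly proteins. All of these genes are counted under the complex of their name.

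The libraries held between 9061491 and 12017008 counts on genes. The targeted gene, Gpr126, was at 124, 108 and 94.3 CPM in controls and 138, 124 and 106 CPM in mutants (log2 fold change 0.17, adjusted p = 0.849 from edgeR), a count over all of its exons that does not check the deletion. Expression is given as CPM, the counts of a gene scaled to the size of the library with TMM factors. A pair of libraries stood apart. In control replicate 1, 22 markers of the skeletal muscle fibre summed to 6275 CPM, against 251 to 373 CPM in the other 5 libraries, and in mutant replicate 1 the 13 protein genes of the mitochondrial genome summed to 60984 CPM, against 15666 to 23626 CPM. Where a call or direction of the members rests on either library, its value without that library is given beside it or in the closing section.

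All 81 members passed the filter on low counts and were tested among 16152 genes. In mutant IVDs 8 members were lower at an unadjusted p under 0.05, which is 9.88% of the members where 4.32% of all genes tested were lower, and 0 were higher where 2.89% of all genes were. Without control replicate 1, the library rich in muscle markers, 4 members, or 4.94%, were lower against 8.89% of all genes, and without mutant replicate 1 it was 5 members, or 6.17%, against 2.52%. After Benjamini-Hochberg adjustment over all genes in edgeR, 0 members passed 0.05 (smallest adjusted p = 0.676), as did 0 in DESeq2 and in limma-voom, and 0.00619% of all genes passed in edgeR. The 3 mutant libraries lay below all 3 controls for 19 members, or 23.5%, against 5.96% of all genes, and above them for 0 members, against 5.45%. Without control replicate 1 these shares were 40.7% against 16.2% below and 6.17% against 13.8% above. Without mutant replicate 1 they were 33.3% against 10.2% below and 2.47% against 8.81% above. The log2 fold change was below 0 in 68 members, or 84%, against 51.6% of all genes, and its median was -0.18 over the members and -0.01 over all genes. The median of the members was -0.12 without mutant replicate 1 and -0.20 without control replicate 1. Subunits of a complex vary together within a library, so these shares are a description and carry no test. In bulk tissue, fewer cells with many mitochondria and less of these RNAs per cell cannot be told apart.

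**Figure D1:**
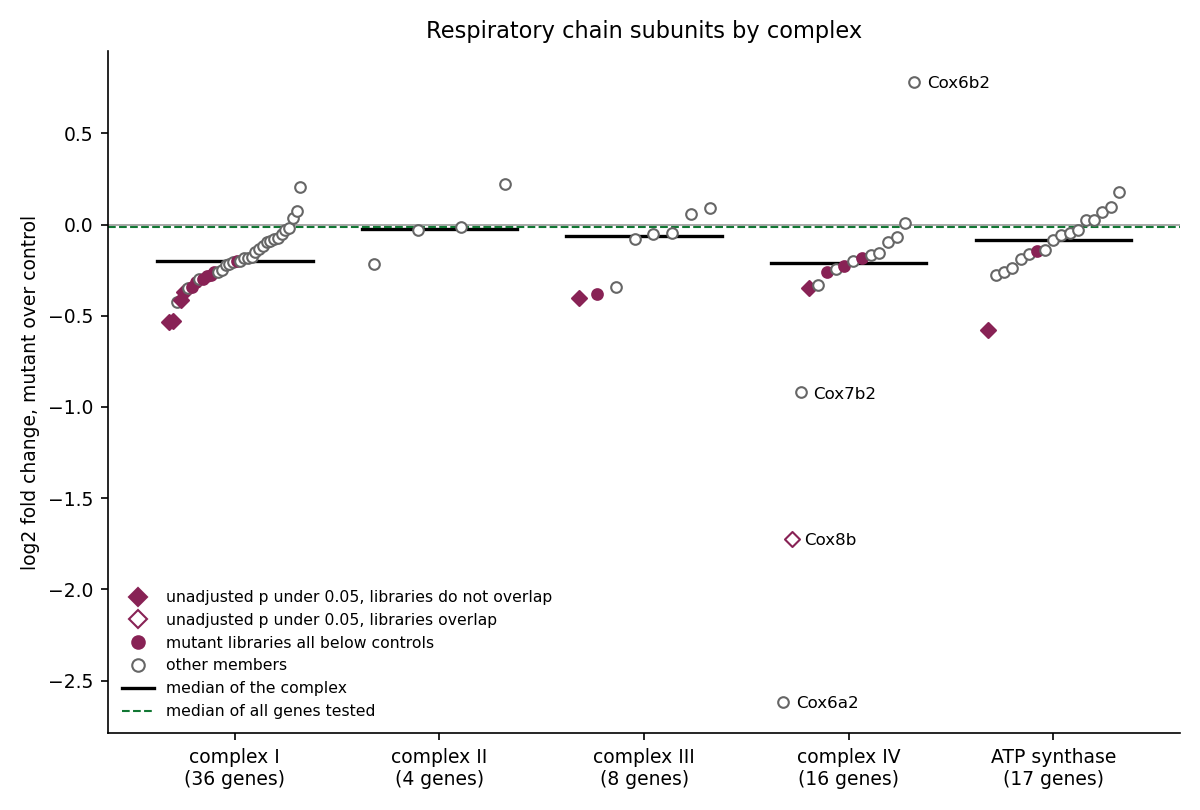
Log2 fold change of mutant over control for each of the 81 members (points, sorted within each complex), with the median of the complex (black line) and of all genes tested (dashed line). Most points of complex I lie a little below 0, with a median of -0.20, while the far points of complex IV are isoforms with few counts.

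The 4 members whose promoters hold the palindrome GCGCATGCGC, the site of the regulator NRF1 of respiratory genes, are shown here with the promoter of Ndufb5, the member with the smallest p. The sequences are the 250 bases before the RefSeq transcript start on GRCm38.p6, in which 68 of the 81 members had an entry. The palindrome is in capitals, as is the CCGGAAG motif of the ETS factor GABP, which lies on the opposite strand in Cox6a1.
Atp5k: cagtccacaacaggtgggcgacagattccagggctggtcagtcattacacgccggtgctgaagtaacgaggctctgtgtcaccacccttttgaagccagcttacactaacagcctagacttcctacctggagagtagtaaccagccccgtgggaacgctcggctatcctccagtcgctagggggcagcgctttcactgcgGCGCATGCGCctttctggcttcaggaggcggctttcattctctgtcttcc
Cox6a1: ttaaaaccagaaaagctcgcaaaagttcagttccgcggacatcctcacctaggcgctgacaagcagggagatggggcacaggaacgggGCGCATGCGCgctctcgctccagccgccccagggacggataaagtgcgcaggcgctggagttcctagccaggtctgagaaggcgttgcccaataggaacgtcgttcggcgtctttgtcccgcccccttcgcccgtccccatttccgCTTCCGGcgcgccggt
Atp5g2: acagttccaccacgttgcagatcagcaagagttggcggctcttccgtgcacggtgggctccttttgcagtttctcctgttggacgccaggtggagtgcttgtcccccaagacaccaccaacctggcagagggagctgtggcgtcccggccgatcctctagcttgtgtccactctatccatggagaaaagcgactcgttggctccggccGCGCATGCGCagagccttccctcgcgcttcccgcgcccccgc
Ndufa11: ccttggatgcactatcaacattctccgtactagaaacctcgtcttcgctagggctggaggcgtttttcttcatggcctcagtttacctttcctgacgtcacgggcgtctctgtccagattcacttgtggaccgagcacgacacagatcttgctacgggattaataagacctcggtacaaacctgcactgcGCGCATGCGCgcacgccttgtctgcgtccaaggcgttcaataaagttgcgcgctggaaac
Ndufb5: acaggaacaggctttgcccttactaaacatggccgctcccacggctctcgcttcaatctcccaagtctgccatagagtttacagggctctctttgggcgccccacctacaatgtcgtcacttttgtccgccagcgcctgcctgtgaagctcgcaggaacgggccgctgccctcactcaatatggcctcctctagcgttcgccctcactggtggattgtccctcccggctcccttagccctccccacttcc
These windows are chr5:108434400-108434649, chr5:115348959-115349208 and chr15:102671048-102671297 on the minus strand and chr17:56717512-56717761 and chr3:32736813-32737062 on the plus strand.

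Both strands of the promoters were searched, and the palindrome lies 50 bases before the start in Atp5k, 162 in Cox6a1, 42 in Atp5g2 and 60 in Ndufa11. It was in 4 of the 68 promoters, or 5.88%, and in 0.877% of 27025 genes in the RefSeq table. CCGGAAG was in 12 members, or 17.6%, against 7.83% of genes. The YY1 motif AAGATGGCG was in 2 members, or 2.94%, against 0.71%, and the ERR motif TCAAGGTCA was in 1 member, Atp5g3, or 1.47%, against 0.422%. ACGTG, the core of the hypoxia response element, was in 16 members, or 23.5%, against 18.5%. Of the 19 members whose mutant libraries lay below all controls, 16 had a promoter in the table, of which 1, Atp5k, held the palindrome and 1 held CCGGAAG. The genes of the RefSeq table were not matched to the members for base composition or expression, which can alter these shares. Matching letters were counted, and binding was not measured.

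Complex I, with 36 of the 81 members, held 4 of the 8 that were called lower (11.1% of its genes, against 4.32% of all genes) and 11 of the 19 without overlap (30.6%, against 5.96%). Without control replicate 1, 2 of its genes were called (5.56%, against 8.89% of all genes), as were 2 of ATP synthase (11.8%) and 0 of complexes II, III and IV. Of its 36 genes, 33 had a log2 fold change below 0, and the median was -0.20. Its 7 measured core subunits, which carry flavin and the iron-sulphur clusters, had a median of -0.10 with 0 called lower, and its 27 accessory subunits, which stabilise the complex and help to assemble it, a median of -0.22 with 4 called lower. The difference between core and accessory subunits was not tested.

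Ndufb5, an accessory subunit of the membrane arm (chromosome 3, 32736990 to 32751566) in GENCODE M21 on GRCm38, was at 48.1, 38.86 and 38.8 CPM in controls and at 29.2, 29.3 and 28.5 CPM in mutants. The mutant libraries lay close together and below every control (log2 fold change -0.53, SE 0.16, edgeR unadjusted p = 0.00817). Without control replicate 1, the highest library, the log2 fold change was -0.40 with an unadjusted p of 0.0506. Exons of Mrpl47 on the opposite strand cover 12.3% of its exons.

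Ndufa5, an accessory subunit of the arm that faces the matrix (chromosome 6, 24518666 to 24528013), was at 32.9, 36.1 and 34.0 CPM in controls and 27.2, 18.8 and 25.2 CPM in mutants. All control libraries were above all mutants, of which replicate 2 was lowest (log2 fold change -0.54, SE 0.18, edgeR unadjusted p = 0.0154). Without mutant replicate 2 the value was -0.37 (edgeR unadjusted p = 0.0633).

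Ndufs6, a zinc-binding accessory subunit that is needed late in assembly (chromosome 13, 73319838 to 73328542), was at 48.5, 43.0 and 47.8 CPM in controls and 36.2, 33.9 and 34.5 CPM in mutants. The groups did not overlap (log2 fold change -0.41, SE 0.15, edgeR unadjusted p = 0.0201). Ndufa3, an accessory subunit of the membrane arm (chromosome 7, 3617373 to 3620327), was at 40.6, 41.2 and 41.3 CPM in controls and 31.8, 30.4 and 32.9 CPM in mutants, with controls that lay within a narrow range above all mutants (log2 fold change -0.37, SE 0.15, edgeR unadjusted p = 0.0308). With 1 library left out, Ndufs6 kept an unadjusted p under 0.05 in edgeR without control replicate 2 or mutant replicate 1 and in 0 of the other 4 fits, and Ndufa3 in 0 of 6, with log2 fold changes between -0.47 and -0.36 and between -0.39 and -0.33.

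The other 7 members of complex I without overlap were Ndufs4, Ndufa12, Ndufa4, Ndufs3, Ndufb10, Ndufb9 and Ndufa7, with log2 fold changes from -0.34 to -0.20 and unadjusted p from 0.0666 to 0.222. Ndufs3, the one core subunit among them, was at 56.4, 66.4 and 59.7 CPM in controls and 50.4, 51.9 and 47.7 CPM in mutants, a difference of -0.28 on the log2 scale (edgeR unadjusted p = 0.0944). For 5 more core subunits the genotypes overlapped. Ndufs1, which carries iron-sulphur clusters, was at 40.7 ± 4.36 CPM in controls and 38.1 ± 5.61 CPM in mutants (SD, n = 3 in each genotype, also below). Ndufv1, the subunit that takes electrons from NADH, was at 65.2 ± 7.25 and 61.3 ± 6.78 CPM, and its partner Ndufv2 at 33.7 ± 0.88 and 33.0 ± 5.45 CPM. Ndufs7, which lies at the site where ubiquinone is reduced, was at 63.1 ± 10.1 and 55.7 ± 20.8 CPM, and Ndufs8 was at 35.9 ± 4.54 and 33.1 ± 5.38 CPM. Log2 fold changes of these 5 lay between -0.18 and -0.03, with unadjusted p from 0.515 to 0.872. The highest log2 fold change of the complex, 0.20 for Ndufb2, rests on 272 counts over 6 libraries.

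**Figure D2:**
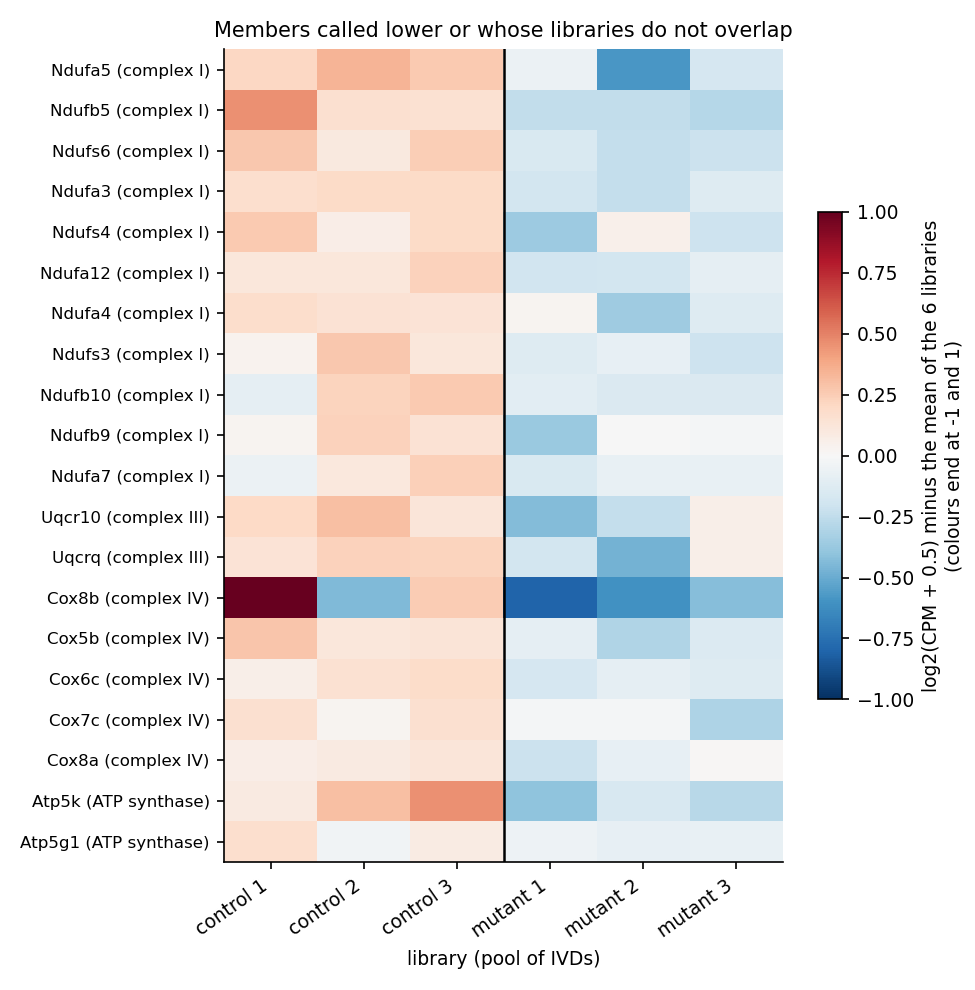
Level of 20 members in each library as log2(CPM + 0.5) minus the mean of the 6 libraries: the 19 whose mutant libraries lay below all controls, and Cox8b, which was called with overlapping libraries. Colours past -1 or 1 are drawn at those values, as for Cox8b in control replicate 1.

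Complex II, the succinate dehydrogenase shared with the citric acid cycle, had 0 of its 4 genes called. The flavoprotein Sdha was at 77.5 ± 9.07 CPM in controls and 76.7 ± 7.72 CPM in mutants, the iron-sulphur subunit Sdhb at 60.8 ± 6.13 and 52.3 ± 3.59 CPM, and the membrane anchors Sdhc and Sdhd at 25.9 ± 4.19 and 30.2 ± 5.42 CPM and at 30.1 ± 0.98 and 29.5 ± 6.59 CPM. Libraries overlapped for all 4, and log2 fold changes ran from -0.22 (Sdhb) to 0.22 (Sdhc), with a median of -0.02. Sdhb was nearest to the threshold, at an unadjusted p of 0.197 (edgeR).

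Of the 8 genes of complex III, 6 were below 0, 1 was called lower (12.5%, against 4.32% of all genes) and 2 had no overlap (25%, against 5.96%), with a median of -0.06. Uqcr10, a small membrane subunit (chromosome 11, 4701973 to 4704342), was at 63.0, 67.7 and 59.8 CPM in controls and 40.5, 46.5 and 57.2 CPM in mutants. Mutant replicate 3 came near the lowest control without reaching it (log2 fold change -0.40, SE 0.17, edgeR unadjusted p = 0.0433), and without mutant replicate 1 the value was -0.26 (edgeR unadjusted p = 0.205). Its unadjusted p was under 0.05 without mutant replicate 3 and in 0 of the other 5 fits that left out 1 library. Uqcrq, which binds next to cytochrome b, was at 86.7, 92.4 and 91.9 CPM in controls and 69.1, 56.6 and 82.1 CPM in mutants, again with no overlap (log2 fold change -0.38, SE 0.18, edgeR unadjusted p = 0.0576). Uqcr11 was at 72.2 ± 9.05 and 56.9 ± 12.7 CPM with overlapping libraries. The core proteins Uqcrc1 and Uqcrc2 were at 79.7 ± 6.41 and 77.0 ± 2.40 CPM and at 46.4 ± 2.62 and 45.0 ± 4.34 CPM, log2 fold changes of -0.05 and -0.05. The Rieske protein Uqcrfs1, which hands electrons to cytochrome c1, had a log2 fold change of 0.09 with overlapping libraries.

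Complex IV is the part of the chain with most tissue forms. Of its 16 genes 14 had a log2 fold change below 0, with a median of -0.21, 2 were called lower (12.5%, against 4.32% of all genes) and 4 had no overlap (25%, against 5.96%). Cox5b, a zinc-binding subunit on the matrix side (chromosome 1, 36691449 to 36693681), was at 87.8, 78.5 and 79.2 CPM in controls and 67.9, 58.8 and 65.9 CPM in mutants. Each mutant library was below each control (log2 fold change -0.35, SE 0.16, edgeR unadjusted p = 0.0490), and with any 1 library left out the unadjusted p was between 0.0693 and 0.156. Cox5a, its neighbour in the complex, was at 21.4 ± 1.53 and 20.4 ± 2.57 CPM, with overlap.

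The general forms Cox6c, Cox7c and Cox8a were the other members of complex IV without overlap. Cox8a was at 89.7, 91.0 and 93.2 CPM in controls and 73.7, 81.0 and 86.3 CPM in mutants, and its log2 fold change was -0.18 (edgeR unadjusted p = 0.264). Those of Cox6c and Cox7c were -0.26 and -0.23. For the general forms Cox6a1, Cox6b1 and Cox7a2 and for Cox7a2l the genotypes overlapped, at 223 ± 24.3 and 194 ± 27.9 CPM, 65.4 ± 6.40 and 58.6 ± 8.10 CPM, 53.4 ± 10.7 and 45.2 ± 3.69 CPM, and 82.4 ± 6.16 and 77.2 ± 17.3 CPM.

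The forms of heart and skeletal muscle were highest in the control library that was rich in muscle markers. Cox8b (chromosome 7, 140898945 to 140900446) was at 24.8 CPM in control replicate 1, at 4.11 and 6.96 CPM in the other controls and at 3.07, 3.59 and 4.14 CPM in mutants. The genotypes overlapped, since mutant replicate 3 was above control replicate 2. Its log2 fold change of -1.72 (SE 0.59, edgeR unadjusted p = 0.0146) became -0.60 (unadjusted p = 0.190) without control replicate 1. Cox6a2 was at 22.8 CPM in that library, with 0.89 CPM and 0 counts in the other controls, the latter allowing up to 0.23 CPM at 3 counts (counting error only), and 1.71, 0.57 and 1.59 CPM in mutants. Its log2 fold change of -2.62 (edgeR unadjusted p = 0.0906) turned to 1.63 without that library. Cox7a1, at 11.9 CPM there and 1.78 to 4.89 CPM elsewhere, turned from -0.33 to 0.66. The testis forms were low. Cox6b2, at 4.85 ± 1.99 CPM in controls and 8.27 ± 3.47 CPM in mutants, had the highest log2 fold change of the members, 0.78 (edgeR unadjusted p = 0.0969), with overlap. Cox7b2 was at 1.81 ± 0.90 and 0.94 ± 0.83 CPM, with overlap as well.

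**Figure D3:**
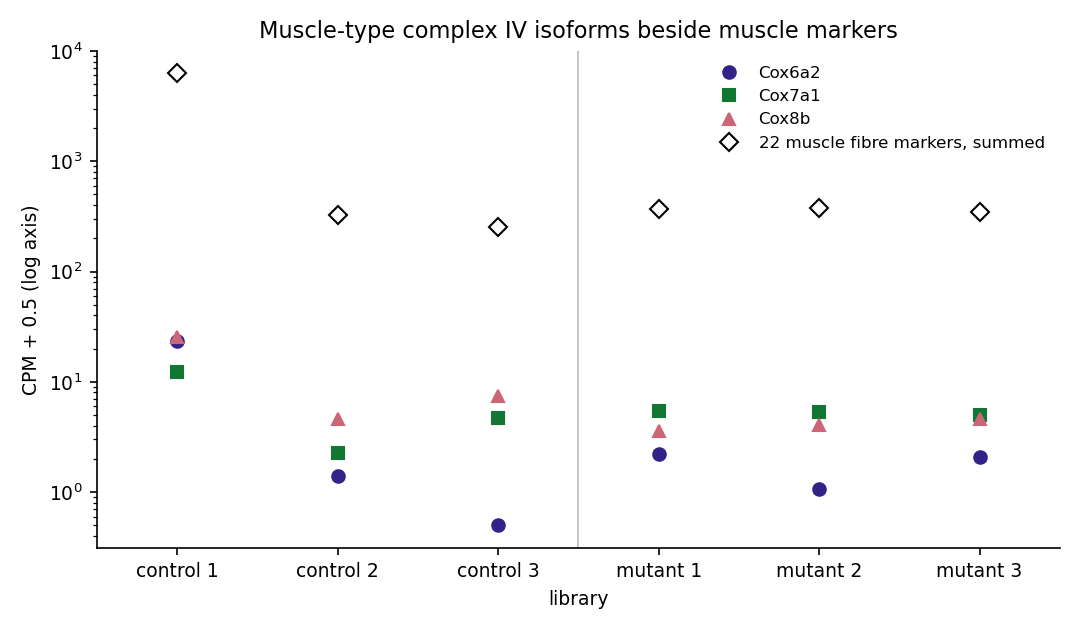
CPM + 0.5 of Cox6a2, Cox7a1 and Cox8b, the muscle forms of 3 subunits of complex IV, and of 22 muscle fibre markers summed, in each library on a log axis. All are highest in control replicate 1, where the markers reach 6275 CPM.

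Of the 17 genes of ATP synthase 12 were below 0, 1, Atp5k, was called lower (5.88%, close to the 4.32% of all genes) and 2 had no overlap (11.8%, against 5.96%), with a median of -0.09. Atp5k, for the small membrane subunit e that holds the enzyme in dimers (chromosome 5, 108433244 to 108434448), was at 27.0, 31.4 and 34.9 CPM in controls and 19.1, 22.6 and 20.8 CPM in mutants. Every mutant library was below every control (log2 fold change -0.58, SE 0.18, edgeR unadjusted p = 0.0083), and the unadjusted p stayed under 0.05 with any 1 library left out, with a log2 fold change between -0.65 and -0.47. Catalytic subunits gave values near 0. Atp5a1 and Atp5b, which form the catalytic head, were at 248 ± 22.7 and 252 ± 26.1 CPM and at 299 ± 34.6 and 304 ± 32.2 CPM, and the rotor subunit Atp5c1 at 64.0 ± 3.65 and 61.6 ± 3.50 CPM. Their log2 fold changes were 0.03, 0.02 and -0.06, with overlap in each case. The 3 genes of the membrane ring, Atp5g1, Atp5g2 and Atp5g3, encode the same mature protein and had log2 fold changes of -0.14, -0.28 and -0.03, of which only Atp5g1 had no overlap (78.6, 67.8 and 73.6 CPM against 67.1, 65.8 and 66.2 CPM). Atp5sl, which is counted here only by its name, was the highest of the group at 0.18 and overlapped too.

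The level of each complex was also summed in every library. These sums weigh abundant genes most. Complex I was at 2118, 2610 and 2531 CPM in controls and 2084, 1852 and 2639 CPM in mutants, a difference of -9.41% with overlap. Its most abundant gene, Ndufa4l2, makes up much of that sum, and complex I without Ndufa4l2 was at 1415, 1562 and 1505 CPM in controls and 1265, 1238 and 1399 CPM in mutants, a difference of -12.97% with no overlap. Complex III was at 476, 467 and 464 CPM in controls and 386, 404 and 446 CPM in mutants, a difference of -12.1% with no overlap. ATP synthase was at 1648, 1689 and 1673 CPM in controls and 1619, 1589 and 1604 CPM in mutants, a difference of -3.95% that also left no overlap. Complex IV, at 996, 1008 and 1083 CPM against 860, 858 and 1010 CPM, and complex II, at 198, 202 and 183 CPM against 199, 185 and 182 CPM, overlapped. No test was made on these sums.

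**Figure D4:**
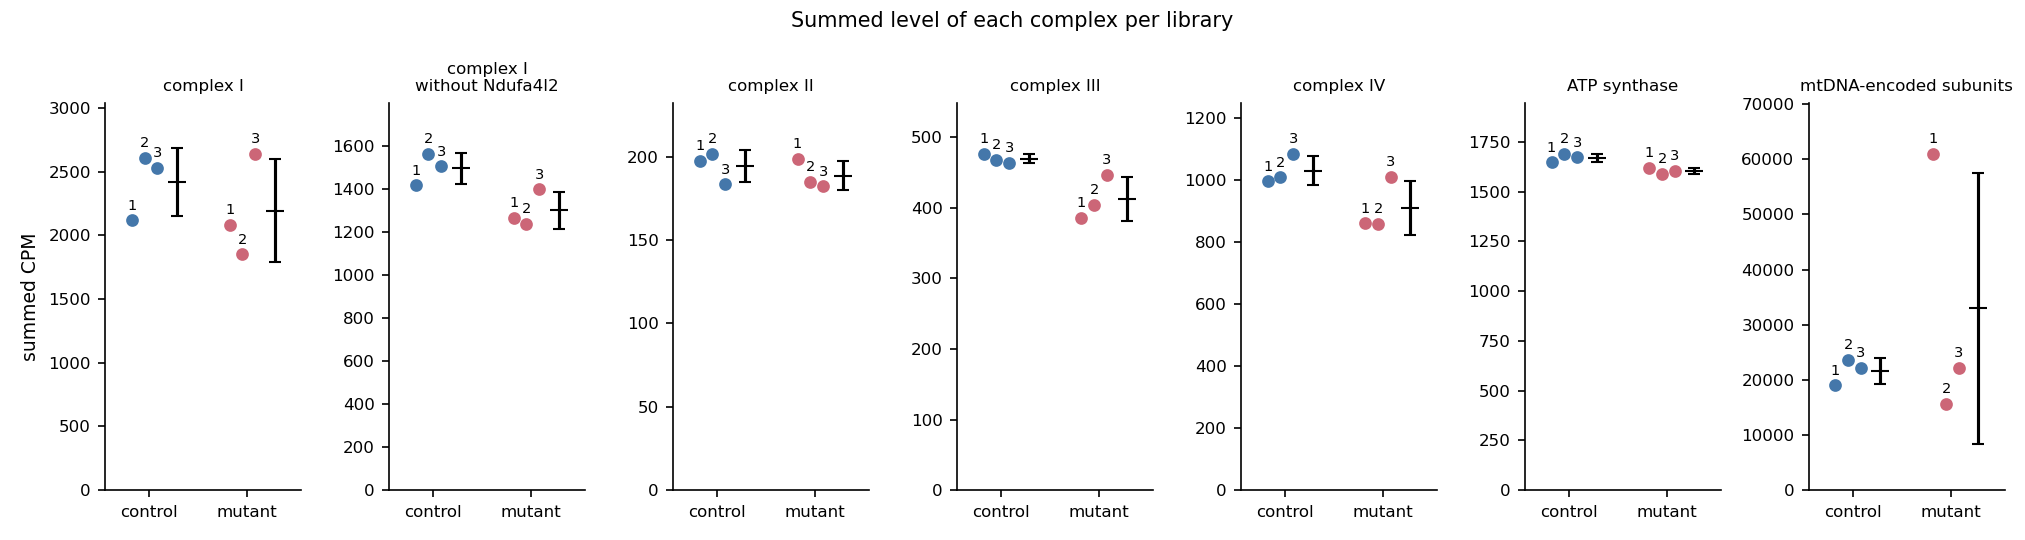
Summed CPM per library (points, numbered by replicate) with the mean and SD of the 3 libraries of each genotype (black), for each complex and for the 13 protein genes of the mitochondrial genome, on axes that start at 0. Mutant points lie below all control points for complex I without Ndufa4l2, complex III and ATP synthase but not for the whole of complex I, and mutant replicate 1 stands apart in the last panel.

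Per kilobase of exon, both low-oxygen forms were among the 3 most abundant members. Ndufa4l2, the low-oxygen paralogue (chromosome 10, 127514967 to 127517154), led at 830 CPM per kilobase, averaged over the 6 libraries, against 25.3 for Ndufa4 and a median of 28.1 over the members. It was at 703, 1048 and 1026 CPM in controls and 819, 615 and 1240 CPM in mutants, so that the mutants held both its lowest and its highest library, and its log2 fold change was -0.05 (edgeR unadjusted p = 0.857). The ratio of Ndufa4l2 to Ndufa4 per kilobase was 22.6, 34.5 and 33.8 in controls and 29.2, 28.7 and 49.3 in mutants. Cox6a1 was next at 297 CPM per kilobase, followed by Cox4i2 (chromosome 2, 152754173 to 152765037), the form of Cox4 induced at low oxygen, at 231. Cox4i2 was at 162, 167 and 216 CPM in controls and 167, 138 and 244 CPM in mutants, with a log2 fold change of 0.01. Only 3 more members, Cox8a, Ndufa2 and Uqcr11, passed 100 CPM per kilobase, and 61 lay between 10 and 100. Exon lengths are the union of all GENCODE transcripts, which understates genes such as Ndufb2 whose annotation keeps introns.

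**Figure D5:**
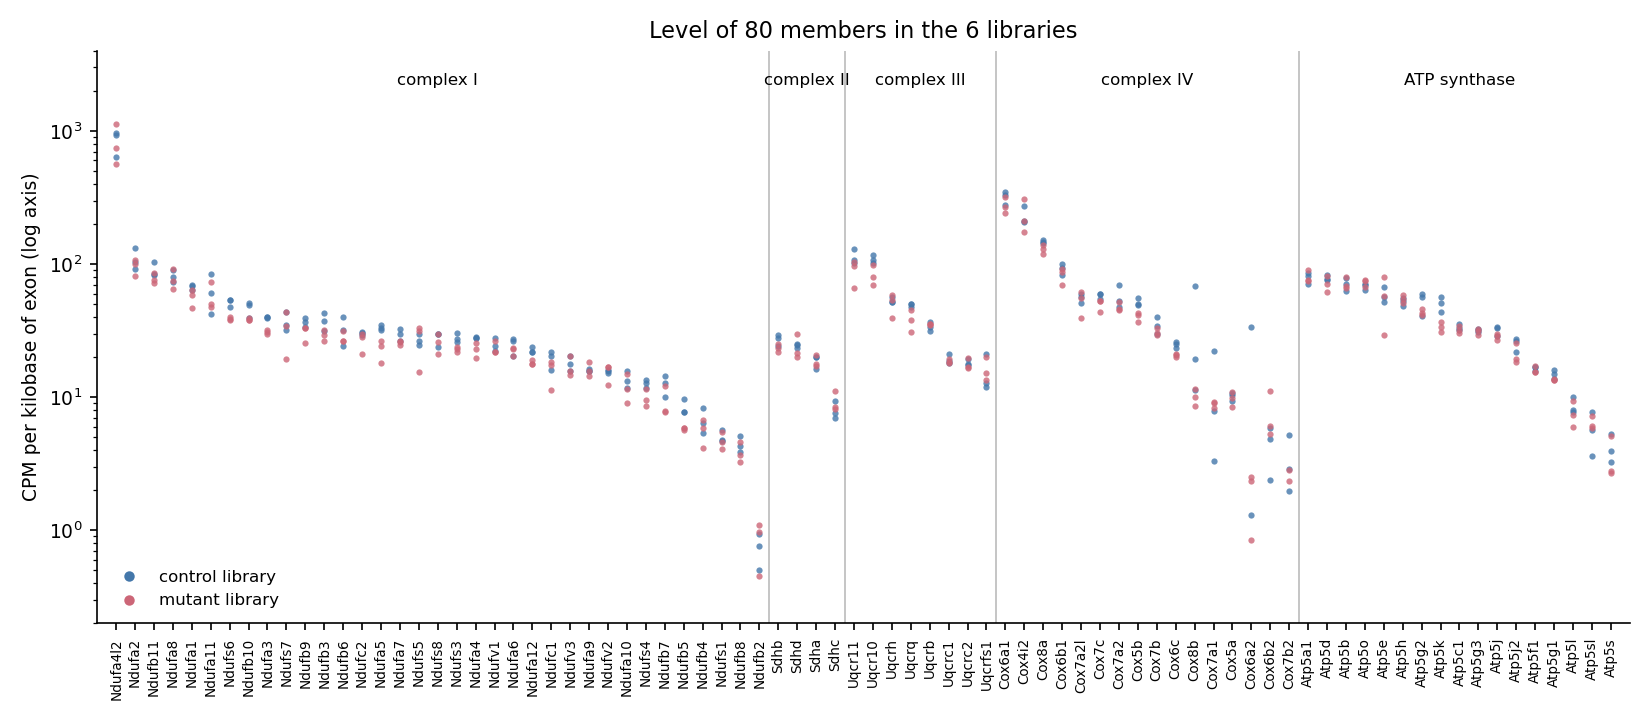
CPM per kilobase of exon on a log axis for 80 members in each library, sorted by mean level within each complex. Ndufa4l2, Cox6a1 and Cox4i2 stand above the rest in both genotypes, and libraries at 0 counts (Cox6a2 in control replicate 3, Cox7b2 in mutant replicate 1) are not drawn.

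The names also matched 6 symbols under the minimum. Cox8c and the pseudogenes Atp5l-ps1, Atp5l-ps2 and Atp5l2-ps had 1 to 5 counts over the 6 libraries, and just inside the minimum stood Cox7b2 with 91 and Cox6a2 with 258. Cox4i1 and Ndufa13 are listed at 0 in every library. Both are general subunits that lie inside another gene annotated on the same strand, Gm20388 and Yjefn3, which had 94262 and 1043 counts. Of 307 coding genes inside a coding gene of the same strand, 92.8% were at 0, so the listing says nothing of their expression, and the ratio of Cox4i2 to Cox4i1 could not be formed. For 24 members an exon overlaps one on the opposite strand, most in Ndufb6 (39% of its exons) and Atp5o (35.6%). The strand setting of the count is not given in the sources used here, so reads there can belong to either gene.

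Values also varied with transcript length. Among all genes tested, those with under 1000 exonic bases had a median log2 fold change of -0.08, those with 1000 to under 2000 bases -0.08 and those with 2000 or more 0.003. Members in the same classes had medians of -0.23 (22 genes), -0.17 (29 genes) and -0.08 (30 genes), in each class below the median of all genes. The part of transcript length in these differences was not tested.

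Other genes of the mitochondrion were counted from lists chosen with earlier results of these data known. Of 8 tested subunits and partners with other names 0 were higher at an unadjusted p under 0.05, against 2.89% of all genes, and the median was -0.20. At that threshold 2 were lower, or 25%, against 4.32% of all genes. These were Ndufab1, the acyl carrier protein of complex I, at 35.5, 32.1 and 29.9 CPM in controls and 25.8, 27.1 and 21.99 CPM in mutants (log2 fold change -0.38, edgeR unadjusted p = 0.0486), and Usmg5, a small subunit of ATP synthase, at 48.8, 52.5 and 55.5 CPM and 42.0, 33.9 and 40.9 CPM (-0.43, unadjusted p = 0.0232). Neither gene had overlapping libraries, so that 25% of the list lay below all controls, against 5.96% of all genes. With 1 library left out Ndufab1 was called in 0 of 6 fits (unadjusted p 0.0535 to 0.172 in edgeR), and Usmg5 lost its call without control replicate 2, control replicate 3 or mutant replicate 2. The 11 tested protein genes of the mitochondrial genome were all above 0, with a median of 0.53 and 0 called, and without mutant replicate 1 their median was -0.16.

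The share of all genes called was 4.32% lower and 2.89% higher, and that without overlap 5.96% and 5.45%. Of 41 assembly factors 1 was lower (Pet100, for complex IV), or 2.44%, and 0 higher, with a median of -0.04. Their summed level was at 773, 813 and 813 CPM in controls and 736, 745 and 741 CPM in mutants, a difference of -7.40% with no overlap. All mutant libraries were below the controls for 1 of these factors, Cox20, or 2.44%, and above for 0. Of 75 mitochondrial ribosomal proteins 2 were lower (Mrpl27 and Mrps6), or 2.67%, and 1 higher (Mrpl3), with a median of -0.08. All mutant libraries were below the controls for 12 of them, or 16%, and above for 3, or 4%, while the sums overlapped. The 17 genes for enzymes of the citric acid cycle and pyruvate dehydrogenase had 0 calls and a median of 0.07. All mutant libraries were below the controls for 2 of these genes, or 11.8%, and above for 0. Of 15 genes of fatty acid oxidation 1 was lower, the carnitine carrier Slc25a20, or 6.67%, with a median of -0.05 and a sum that differed by -3.54% with no overlap. All mutant libraries were below the controls for 3 of the 15, or 20%, and above for 0.

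Among 18 regulators of mitochondrial biogenesis 2 were lower, or 11.1%, and 1 higher, or 5.56%, with a median of -0.07. Ppargc1a, the coactivator PGC-1alpha that drives respiratory genes, was at 1.61, 2.55 and 4.14 CPM in controls and 0.23, 0.65 and 1.17 CPM in mutants. These are low counts, with every mutant library below every control (log2 fold change -2.00, SE 0.70, unadjusted p = 0.0170, adjusted p = 0.676 from edgeR). Esrrg, the nuclear receptor ERR gamma that works with it, was at 4.92, 15.1 and 21.5 CPM in controls and 2.85, 4.82 and 5.74 CPM in mutants, with overlap only through control replicate 1 (log2 fold change -1.63, SE 0.49, edgeR unadjusted p = 0.00756). Pprc1, a relative of Ppargc1a, was at 70.2, 68.1 and 52.1 CPM in controls and 92.3, 75.2 and 86.6 CPM in mutants, with every mutant library above every control (log2 fold change 0.42, edgeR unadjusted p = 0.0421). Esrrg was called with any 1 library left out while Ppargc1a lost its call when control replicate 3 or either of mutant replicates 1 and 2 was absent, and Pprc1 kept its call in 2 of the 6 fits, those without control replicate 1 or mutant replicate 2. These genes were named after their values were seen, and no relation between them and the members was tested.

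Markers of other cells were counted as well, and for each of the lists below the summed levels of the genotypes overlapped and 0 genes passed the adjusted threshold. For red cell precursors, osteoblasts, tendon and endothelium this overlap came from control replicate 1, without which every mutant sum lay above both controls. Of all genes tested 4.32% were lower and 2.89% higher at an unadjusted p under 0.05. Of 22 muscle fibre markers 18, or 81.8%, were lower in mutants at that threshold. Their sum was at 6275 CPM in control replicate 1, but at 324 and 251 CPM in the other controls, below the mutants at 368, 373 and 346 CPM, so that its direction turns without that library. Of 12 cartilage and inner disc markers 10 were below 0 and 3, or 25%, were called lower, with a median of -0.30. Their sum was at 96965 to 162999 CPM in controls and 128317 to 160560 CPM in mutants, a difference of 6.80%. Most of that sum is Col2a1, whose log2 fold change was 0.27. Red cell precursor markers had a log2 fold change above 0 in 9 of 9 genes, 1 of them (11.1%) called higher. Neutrophil markers were above 0 in 10 of 10 genes with 2 (20%) called higher. Osteoblast markers were above 0 in 7 of 10 genes, with 3 (30%) called higher (Bglap, Bglap2 and Col1a1) and 1 (10%) lower. The red cell sum was at 346, 41.5 and 105 CPM in controls and 281, 457 and 216 CPM in mutants, a difference of 93.8%, or 334% without control replicate 1. The osteoblast sum was at 14745, 9591 and 5376 CPM in controls and 13511, 21366 and 21892 CPM in mutants, a difference of 91.1%, or 153% without that library. The neutrophil sum was at 16.9, 35.9 and 63.1 CPM in controls and 169, 61.0 and 36.2 CPM in mutants, a difference of 130% that became 25.8% without mutant replicate 1. Tendon and outer annulus markers were above 0 in 7 of 8 genes, with a median of 0.72, and 4 (50%) were called higher (Tnmd, Thbs4, Egr1 and Col1a1). Their sum was at 16939, 12158 and 6787 CPM in controls and 15512, 24825 and 25318 CPM in mutants, a difference of 83.0%, or 131% without control replicate 1. Col1a1 is in both the osteoblast and the tendon list and makes up most of both sums. Endothelial markers were above 0 in 9 of 10 genes with 0 called, and their sum differed by 24.98%, or by 52.5% without control replicate 1. Macrophage markers were above 0 in 7 of 9 genes with 1 (11.1%) called higher. Their sum differed by 31.8%, or by 1.07% without mutant replicate 1. Adipocyte markers were below 0 in 6 of 9 genes and nucleus pulposus and notochord markers in 5 of 8, with 1 called lower in each (11.1% and 12.5%). No marker of these lists was at 0 in all libraries. Their part in the lower values of the members was not tested. Without control replicate 1 and mutant replicate 1, a comparison of 2 against 2 libraries chosen after the values were seen, 58 of the 80 members tested were below 0, the median was -0.14, and 2 were lower at an unadjusted p under 0.05, Atp5k and Ndufa5, where 7.72% of all genes were.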

How the data were processed

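RNA-seq libraries of IVDs were analysed from the deposited files. The authors deposited raw counts per gene symbol, 1 file for each library, whose closing lines have the form that htseq-count writes. According to the submitters' processing notes, STAR 2.5.3a and HTSeq were used on mm10 (GRCm38), whereas the study's methods name Cutadapt, FastQC and HISAT2. The strand setting is not given in the sources used here. A table of the authors' own comparison (fold changes, p-values and scaled counts) was not used. The members and the gene lists were chosen with earlier results of these data known.

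The count test was that of edgeR 4.0.16 under R 4.3.3 (TMM factors, filterByExpr with a count minimum of 10, quasi-likelihood test, Benjamini-Hochberg adjustment over 16152 genes, no covariates), with calls at an unadjusted or adjusted p under 0.05. The script was tested on simulated data. All 43472 symbols except the summary lines entered the library sizes. CPM are scaled by TMM, and CPM per kilobase were divided by the union of GENCODE M21 exons. Named members were the core subunits (1 gene is not reported here), the pairs of tissue isoforms, the highest and lowest fold change and the highest level per kilobase of each complex, and every member at an unadjusted p under 0.05. Alternatives were RLE factors, no filter, DESeq2 1.42.0, limma-voom (limma 3.58.1) with quality weights, the replicate number as a block, unscaled CPM, leaving out isoform genes, and leaving out each library. Promoters came from the RefSeq table of GRCm38.p6.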

Additional observations from a re-analysis of the deposited data

How the results depend on the processing

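The direction of the members as a group did not turn under any setting: 58 to 69 of the members tested were below 0, and with 1 library left out their median log2 fold change ran from -0.22, when mutant replicate 3 was dropped, to -0.12, when mutant replicate 1 was. The number called lower did change. It was 8 with RLE factors, 9 in limma-voom and 6 with the replicate number as a block, but 5 in DESeq2, 5 without the filter on low counts, 4 to 7 with 1 library left out (4 without control replicate 1 or mutant replicate 2) and 2 in the comparison of 2 against 2 libraries, which was chosen after the data were seen. The share of members called was below that of all genes without control replicate 1 (4.94% against 8.89%), without mutant replicate 2 (4.94% against 5.03%) and with 2 against 2 libraries (2.5% against 7.72%), near it without the filter (6.17% against 5.74%), and above it in the other fits. Atp5k was among them in all of these fits. Without the filter 1 member, Cox6b2, was higher and 1, Cox8b, had an adjusted p under 0.05 (0.0182 in edgeR), and Cox8b lost its unadjusted call without control replicate 1. Members without overlap numbered 21 to 33 lower (25.9% to 40.7%, against 9.08% to 16.2% of all genes) and 0 to 5 higher (0 to 6.17%, against 8.35% to 13.9%) with 1 library left out, and 39 lower (48.1%, against 22.02%) and 7 higher (8.64%, against 19.0%) with 2 against 2 libraries. On unscaled library totals the median of all genes shifted by -0.12, and the log2 difference of the summed CPM became -0.27 for complex I (-0.14 with TMM, and -0.30 to -0.035 with 1 library left out), -0.16 for complex II, -0.30 for complex III, -0.30 for complex IV and -0.18 for ATP synthase. For ATP synthase the summed difference was -0.074 with 2 against 2 libraries, and the median was -0.14 with the replicate block, -0.043 with 2 against 2 libraries and -0.10 to -0.026 with 1 library left out. That median lay between -0.26 and -0.14 for complex I and between -0.097 and 0.063 for complex II. Deviations of same-numbered pools correlated at 0.159, -0.132 and 0.101, and those of differently numbered pools between -0.265 and 0.179. With 3 libraries in each genotype, these values cannot decide whether same-numbered pools shared a litter or a batch.

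For the other lists, the mitochondrial genome had a median of -0.16 to 0.84 with 1 library left out (0 to 4 genes called), -0.24 with 2 against 2 libraries and 1 gene called without the filter. Subunits with other names had a median of -0.20 to -0.098, with 0 to 1 genes called with 1 library left out and 1 without the filter, in DESeq2, with the block and with 2 against 2 libraries. Assembly factors had a median of -0.088 to -0.035 with 0 to 2 called, and 3 in limma-voom. The citric acid cycle with pyruvate dehydrogenase had -0.037 to 0.20 with 0 to 1 called, and 1 in limma-voom, and fatty acid oxidation -0.058 to 0.027. Regulators of biogenesis had -0.12 to 0.037 with 1 to 4 called, -0.14 in limma-voom and 0.057 with 2 against 2 libraries. Ribosomal proteins had 1 to 4 called, and 7 in limma-voom.

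Most members that changed sign were near 0 with all 6 libraries, but Cox6a2 (log2 fold change -2.62) and Cox7a1 (-0.33) were not. Ndufb2 (0.20), Ndufs7 (-0.18) and Atp5sl (0.18) also lay further from 0 than most. With 1 library left out, log2 fold changes ranged from -0.036 to 0.10 for Atp5a1, -0.048 to 0.13 for Atp5b, -0.030 to 0.012 for Atp5g3, -0.056 to 0.48 for Atp5sl, -0.25 to 0.19 for Cox4i2, -0.12 to 0.029 for Cox5a, -3.21 to 1.63 for Cox6a2, -0.76 to 0.66 for Cox7a1, -0.22 to 0.11 for Cox7a2l, -0.37 to 0.17 for Ndufa4l2 and -0.030 to 0.51 for Ndufb2. The ranges were -0.20 to 0.0069 for Ndufs1, -0.45 to 0.10 for Ndufs7, -0.23 to 0.016 for Ndufs8, -0.18 to 0.022 for Ndufv1, -0.090 to 0.14 for Ndufv2, -0.10 to 0.052 for Sdha, -0.19 to 0.096 for Sdhd, -0.083 to 0.038 for Uqcrc1, -0.092 to 0.013 for Uqcrc2 and -0.056 to 0.42 for Uqcrfs1. In limma-voom Cox6a2 was 0.9995, Cox7a1 0.46 and Ndufb2 -0.091. With the replicate block Cox4i2 was -0.018 and Cox7a1 0.023, and without the filter Sdha was 0.0042. With 2 against 2 libraries Cox7a1 was 0.66, Cox7a2l 0.067, Ndufv1 0.097, Ndufv2 0.15 and Uqcrc1 0.070. The cause of these changes was not tested.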
